A study of Mus musculus with 70 samples.

Results

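The hippocampal transcriptome of APP23 transgenic (TG) mice was compared between 2 feeding schedules at Zeitgeber time (ZT) 18, while food was open to both groups. ZT counts the hours since the lights came on, and they went off at ZT12. Of the 69 animals of the series (70 libraries), 6 were chosen by their labels alone: 3 TG mice on time-restricted feeding (TRF; mice TRF-302, TRF-305 and TRF-330) and 3 TG mice fed ad libitum (ALF; mice ALF-303, ALF-314 and ALF-329), all killed at ZT18. Both groups carried a human APP transgene driven by the neuronal Thy1 promoter, so the comparison is between feeding schedules in mice that all overexpress APP, and the transgene is no readout of endogenous App regulation. TRF mice had food for 6 h a day, between ZT15 and ZT21, which at ZT18 places them inside the window. The restriction began when the mice were between 6 and 9 months old. Mice of both groups were 10 to 13 months old when killed, and ALF mice always had food. Each library came from the hippocampus of 1 mouse. Beside this comparison stand 15 TG mice on TRF and 16 TG mice on ALF killed at ZT0, ZT6 or ZT12, and, at ZT18, 2 non-transgenic (NTG) littermates on TRF and 2 on ALF. The labels give no animal's sex.

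Feeding time is a strong signal to the clocks of peripheral organs, and fasting and refeeding switch cells between fat oxidation and glucose use. In rodents a single daily meal is also preceded by a rise of corticosterone, which reaches the hippocampus and induces genes such as Fkbp5 through the glucocorticoid receptor. The hippocampal clock itself runs on transcriptional feedback in which BMAL1 and CLOCK, or NPAS2, drive the Per, Cry and Nr1d genes through E-box sequences.

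The values are normalized counts per gene, in which one factor per library had been applied to the reads. The 6 libraries held 34950800 to 43992600 reads over the listed genes. Thy1, whose regulatory sequence drives the transgene, was at 142473, 123885 and 118943 normalized counts in TRF mice, against 126262, 123137 and 119073 in ALF mice, and at 23839 and 23763 in NTG TRF mice, against 24199 and 25646 in NTG ALF mice. The 6 TG values all lay far above the 4 NTG values in either feeding group, as the labels have it. App itself was at 53899, 52584 and 51537 normalized counts in TRF mice, against 53106, 52823 and 51723 in ALF mice. Neither gene separated the feeding groups: the log2 fold change (TRF over ALF, here and throughout) was 0.060 ± 0.14 (SE) for Thy1 and 0.0032 ± 0.12 (SE) for App.

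Tissue content differed between the libraries, and the choroid plexus was the clearest case. This tissue, which makes cerebrospinal fluid, lies against the hippocampus and can be taken or left in dissection. The mean log2 level of its 19 markers was 5.69, 9.62 and 10.2 in TRF mice, against 10.7, 10.9 and 10.8 in ALF mice. Every TRF mouse was below every ALF mouse, and TRF-302 was far below all others. Its summed marker level was 3.25% of the ALF mean. Ttr, the thyroid hormone carrier that choroid plexus secretes in bulk, was at 191, 76506 and 120334 normalized counts in TRF mice, against 150612, 165915 and 154271 in ALF mice. In NTG mice at the same time the order was the other way round, with mean marker levels of 11.1 and 10.8 in TRF mice, against 6.68 and 6.30 in ALF mice. TRF-302 also had the lowest median correlation with the other 5 libraries, at 0.981 where the others had at least 0.988 (Pearson, log2 values across genes, which are not independent).

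Signals of the thalamus and of Xist fell on single animals or on both groups alike. Those of the ventricle lining and of myelin, given below, were mostly lower in TRF mice. Markers of the thalamus, which adjoins the hippocampus, were highest in ALF-314: Tcf7l2, a transcription factor of thalamic neurons, was at 201, 187 and 186 normalized counts in TRF mice, against 212, 877 and 224 in ALF mice. Xist, which is made from the inactive X chromosome, was at 12.4, 2.73 and 30638 normalized counts in TRF mice, against 19.5, 335 and 31226 in ALF mice. TRF-330 and ALF-329 were thus high, ALF-314 was intermediate, and the other 3 animals were low. Markers of dentate granule cells, CA1 and CA3 pyramidal cells, the cells that define the hippocampus, were present in every library, for example Calb1 at 4385, 4151 and 4858 normalized counts in TRF mice, against 3994, 3627 and 4035 in ALF mice. In bulk tissue, fewer cells of a type and less RNA per cell cannot be told apart.

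**Figure D1:**
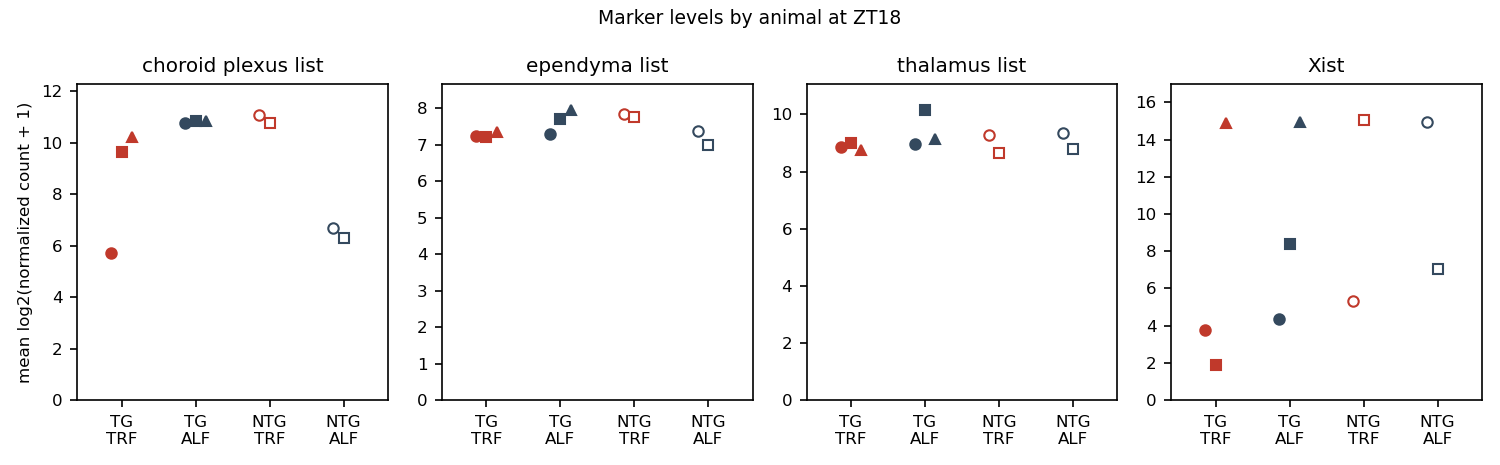
Mean log2(normalized count + 1) of the choroid plexus, ependyma and thalamus markers and of Xist in the 10 animals killed at ZT18, 1 point each, with TRF in red and ALF in dark blue, TG filled and NTG open. Choroid plexus markers were lowest in TRF-302 (5.69) and between 10.7 and 10.9 in the 3 TG ALF mice, while the NTG mice ran in the opposite order.

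At ZT18 no gene passed the test for a feeding effect in TG mice. Of 14260 genes tested, 0 had an adjusted p under 0.05 (limma's moderated test on log2(normalized count + 1), with the spread shared by all 69 animals, and Benjamini-Hochberg adjustment), and the smallest adjusted p was 1.0. At an unadjusted p under 0.05 there were 225 genes, 1.58% of those tested, of which 62 were higher (0.435%) and 163 lower (1.14%) in TRF mice. With quantile normalization these were 114 higher and 128 lower. The share of 1.58% lies below the 0.05 that such a threshold would pass if no gene differed. The 3 TRF values all lay above the 3 ALF values for 856 genes (6.00%) and below them for 973 (6.82%). The median log2 fold change was 0.0063, and 51.8% of genes had a positive one and 48.2% a negative one. The sizes that these data can bound are moderate: the median 95% interval reached 0.342 to either side of the estimate (log2), and the interval lay wholly within 1 log2 unit of 0 for 12986 genes (91.1%) and within 0.5 for 8569 (60.1%). An exact permutation test of 3 against 3 cannot give a 2-sided p under 0.10, so none was used on single genes. That 0.10 is also the share of genes that would lie apart in either direction if none differed. The share seen was 12.8%.

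The count depended on how the spread was estimated. The ZT18 groups were less variable than the rest: the median gene had an SD of 0.118 in TRF and 0.115 in ALF mice, against 0.164 to 0.268 in the groups of at least 2 animals at other times. With the 6 animals alone, whose median SE was 0.106 against 0.171 in the fit of all animals, limma still called 0 genes, with a smallest adjusted p of 0.0717 and 1012 genes at an unadjusted p under 0.05 (382 higher, 630 lower). Weighting each library by its own spread gave 9 genes, with Kirrel2 and Nrarp higher and Alpl, Ano10, Mms22l, Nckap5, Opalin, Pi4k2b and Trim12c lower. A fit of the 5 animals other than TRF-302, added after the data were seen, called 31 genes, 3 higher and 28 lower. Of these 31, 10 were among the 19 choroid plexus markers, where 14260 genes were tested. Kirrel2 and Etnppl (higher) and Alpl, Opalin, Gfap, Il33 and Mog (lower), described below, were also among the 31. In the fit of all animals, leaving out TRF-302 called 0 genes.

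Among the genes whose groups did not overlap, the 12 of smallest p in the higher direction had log2 fold changes of 0.24 to 1.70. None passed the adjusted test. Kirrel2 (chr7:30447766-30457515, GRCm38), an adhesion protein of the immunoglobulin superfamily, was at 399, 468 and 450.0 normalized counts in TRF mice, against 246, 235 and 272 in ALF mice. The lowest TRF value was well above the highest ALF value, and the log2 fold change was 0.80 ± 0.25 (SE) with an unadjusted p of 0.00247. Tpbg, a membrane glycoprotein that inhibits Wnt signalling, had the smallest p of the 12, 0.00212, at 424, 365 and 395 normalized counts in TRF mice, against 222, 287 and 267 in ALF mice. Its log2 fold change was 0.61 ± 0.19 (SE). Prph, the intermediate filament peripherin, was at 235, 145 and 198 normalized counts in TRF mice, against 119.7, 87.1 and 96.2 in ALF mice, a log2 fold change of 0.91 ± 0.31 (SE). Lefty2, a secreted antagonist of Nodal signalling in the TGF-beta family, was at 108, 119 and 137 normalized counts in TRF mice, against 37.2, 53.7 and 95.3 in ALF mice, a log2 fold change of 1.05 ± 0.38 (SE). These levels are low, and the spread among ALF mice in Lefty2 was wide.

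Genes of Notch signalling stood among the same 12, a grouping made after their values were seen. Nrarp, a feedback inhibitor of the Notch intracellular domain, was at 626, 564 and 854 normalized counts in TRF mice, against 538, 403 and 558 in ALF mice, a log2 fold change of 0.44 ± 0.14 (SE). The lowest TRF and the highest ALF value nearly touched, and the fold change was 0.26 without TRF-330 and 0.29 without ALF-314. Lfng, the fringe glycosyltransferase that modifies the Notch receptor, was at 754, 839 and 828 normalized counts in TRF mice, against 466, 563 and 684 in ALF mice, a log2 fold change of 0.51 ± 0.20 (SE). Amn, known in kidney and intestine as the partner of cubilin in vitamin B12 uptake, was at 268, 375 and 207 normalized counts in TRF mice, against 179, 171 and 128 in ALF mice, a log2 fold change of 0.80 ± 0.27 (SE). Amn stands here with Nrarp and Lfng only because their promoters matched the same motif, and it is not a gene of Notch signalling. Several motifs were searched, given here and below, and this was the motif with the most matches among the higher genes. The 3 were thus put together by the search itself, and whether they share regulation was not tested. A search of the RefSeq promoters (GRCm38.p6, 250 bases before to 50 after the start) found the E-box CACGTG, its own reverse complement, in Nrarp, Lfng and Amn, 3 of the 10 of these 12 genes that had a promoter entry. It was in 9.98% of all 11019 listed genes with an entry and in 0 of 10 on the lower side. A match is only a run of letters, and no binding was measured. The E-box is in capitals below, 5′ to 3′ on each gene's own strand, + for all 3; in Amn the capitals also mark ACACCGTGT, a match to the glucocorticoid receptor motif ACANNNTGT, and GAAGATTC, a match to the heat shock motif GAANNTTC.
Nrarp, chr2:25180508-25180807: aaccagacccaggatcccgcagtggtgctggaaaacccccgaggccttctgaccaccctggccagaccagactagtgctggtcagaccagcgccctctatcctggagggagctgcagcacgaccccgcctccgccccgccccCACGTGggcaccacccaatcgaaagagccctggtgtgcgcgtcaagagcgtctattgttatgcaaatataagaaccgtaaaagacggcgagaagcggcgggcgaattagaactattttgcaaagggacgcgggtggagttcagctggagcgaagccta
Lfng, chr5:140607091-140607390: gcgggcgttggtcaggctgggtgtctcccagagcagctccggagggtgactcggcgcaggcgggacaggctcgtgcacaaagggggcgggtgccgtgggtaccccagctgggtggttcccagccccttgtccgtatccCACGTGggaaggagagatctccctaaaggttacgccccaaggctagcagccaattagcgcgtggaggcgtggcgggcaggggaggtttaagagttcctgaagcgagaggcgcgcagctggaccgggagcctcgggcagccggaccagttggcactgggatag
Amn, chr12:111270846-111271145: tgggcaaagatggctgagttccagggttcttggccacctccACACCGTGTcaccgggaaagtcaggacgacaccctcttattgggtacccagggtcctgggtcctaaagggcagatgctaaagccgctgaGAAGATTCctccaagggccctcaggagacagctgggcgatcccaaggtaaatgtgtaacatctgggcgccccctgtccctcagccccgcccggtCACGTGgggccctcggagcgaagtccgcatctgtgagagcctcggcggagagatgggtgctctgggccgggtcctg

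Searched likewise on both strands, D-box TTANNTAA and EGR box GCGGGGGCG each matched Tpbg alone of the 10 higher genes, and the CRE TGACGTCA matched Tmc7 alone. Among all genes with an entry these were in 3.36%, 5.82% and 3.18%. On the lower side 1 of 10 promoters held any of the motifs, Ano10 with the heat shock motif, which 5.50% of all entries held. The glucocorticoid motif was in 4.13% of all.

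The other leading higher genes were of mixed function. Ykt6, a SNARE of membrane fusion in the secretory pathway, was the most abundant and the tightest, at 3527, 3505 and 3567 normalized counts in TRF mice, against 2910.3, 2926 and 3155 in ALF mice. The TRF mice lay within a very narrow range above all ALF mice, and the log2 fold change was 0.24 ± 0.092 (SE), with an unadjusted p of 0.0117. Tiam2, an exchange factor for the small GTPase Rac, was at 1368, 1762 and 1501 normalized counts in TRF mice, against 1367, 1018 and 1113 in ALF mice, with the lowest TRF and the highest ALF value almost equal. Tmc7, of the transmembrane channel-like family, had a log2 fold change of 0.34 ± 0.12 (SE), and Tnnt2, cardiac troponin T, one of 0.86 ± 0.34 (SE). For Tnnt2 the fold change was 0.50 without ALF-314, which was lowest at 59.4. AU023762, at 27.9, 60.1 and 36.1 normalized counts in TRF mice, against 11.5, 17.1 and 7.40 in ALF mice, had the greatest fold change of the 12, 1.70 ± 0.58 (SE), and the lowest level.

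The 12 leading lower genes had log2 fold changes of -1.48 to -0.37, and likewise none passed. Alpl (chr4:137741731-137796384, GRCm38), tissue-nonspecific alkaline phosphatase, which in brain is found at the vasculature and at neurons, separated the groups most cleanly, at 124.1, 116.5 and 106.6 normalized counts in TRF mice, against 230.5, 244 and 236 in ALF mice. Each group was narrow and no TRF value came near the ALF values, and the log2 fold change was -1.03 ± 0.29 (SE), with an unadjusted p of 0.000753. Opalin, a membrane protein of myelinating oligodendrocytes, was at 493, 283 and 339 normalized counts in TRF mice, against 739, 624 and 659 in ALF mice. The TRF values were spread but all below the ALF values, with a log2 fold change of -0.89 ± 0.25 (SE). Mms22l, which protects stalled replication forks, had the smallest p of the whole table, 0.000404, at the low levels of 17.6, 26.4 and 15.6 normalized counts in TRF mice, against 76.2, 49.7 and 45.3 in ALF mice. Its log2 fold change was -1.48 ± 0.39 (SE).

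Lipid kinase Pi4k2b, which makes phosphatidylinositol 4-phosphate, was at 76.5, 79.2 and 82.8 normalized counts in TRF mice, against 203, 129.4 and 144.3 in ALF mice. The TRF mice clustered tightly, and the log2 fold change was -0.96 ± 0.26 (SE). Trim12c, of the TRIM family of antiviral ubiquitin ligases, was at 111, 112 and 123 normalized counts in TRF mice, against 175, 251 and 207 in ALF mice, a log2 fold change of -0.85 ± 0.23 (SE); it has close paralogs, between which reads may have been split. Nnt, the mitochondrial enzyme that makes NADPH from NADH, was at 1153, 1036 and 723 normalized counts in TRF mice, against 1854, 1633 and 1354 in ALF mice, a log2 fold change of -0.75 ± 0.25 (SE). Nckap5 was at 143, 141.9 and 120.5 normalized counts in TRF mice, against 229, 217 and 216 in ALF mice, narrow in both groups, with a log2 fold change of -0.71 ± 0.21 (SE). Ano10, an anoctamin, had a log2 fold change of -0.38 ± 0.13 (SE), Nelfe, a subunit of the negative elongation factor of RNA polymerase II, one of -0.37 ± 0.11 (SE), and Riox2, a ribosomal protein hydroxylase, one of -0.50 ± 0.17 (SE). The last 2 of the 12 are the noncoding RNAs Gm9776 (-0.72 ± 0.22 (SE)) and A230001M10Rik (-0.85 ± 0.27 (SE)), and the second had a fold change of -0.47 without TRF-330, whose value was 47.5.

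With the choroid plexus level as a covariate, and without TRF-302, 0 of the 24 fold changes moved by more than 1.5 times. Leaving out any 1 of the 6 animals moved 3 of them (Nrarp, Tnnt2 and A230001M10Rik) by more than 1.5 times; their signs cannot turn, since the genes were chosen for groups that do not overlap.

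**Figure D2:**
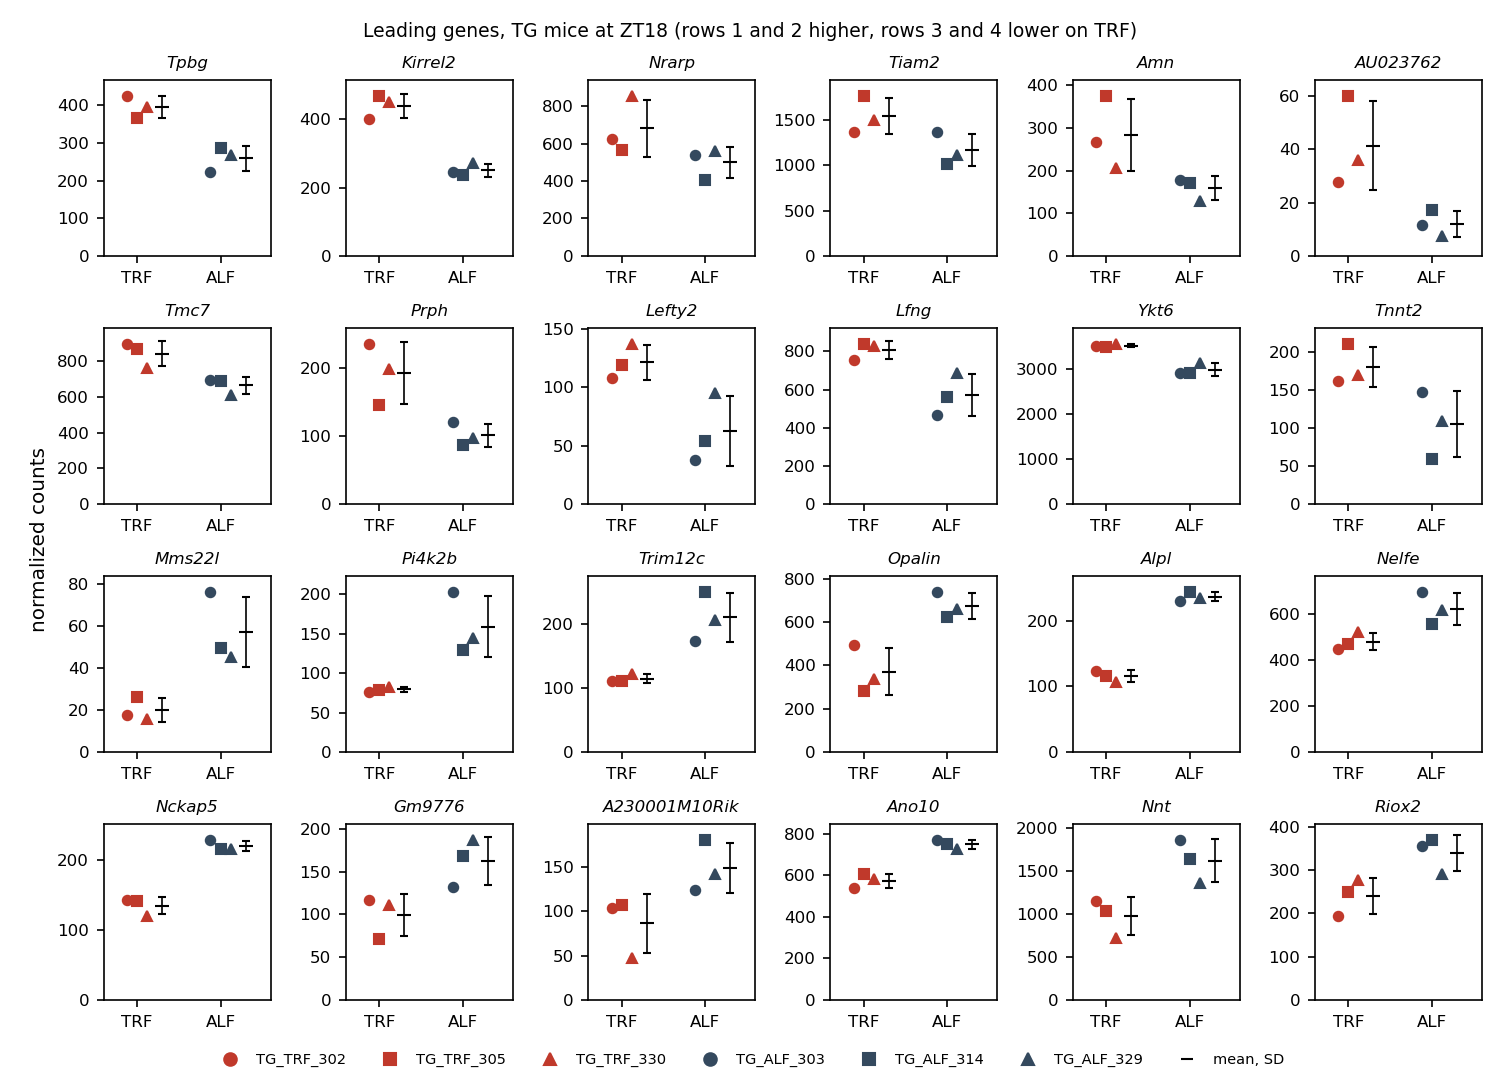
Normalized counts of the 24 leading genes in each TG mouse at ZT18, 1 point per animal, TRF (red) left of ALF (dark blue), with the group mean and SD in black and axes that start at 0. In each panel the 3 TRF values lie on one side of the 3 ALF values, since that is how the genes were chosen; Alpl, Nckap5 and Kirrel2 leave wide gaps, and in Tiam2 and Nrarp the groups nearly touch.

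The clock genes differed little between the schedules at ZT18. Of 21 listed members 13 had a positive fold change, and the median was 0.079 on the log2 scale, where that of all genes was 0.0063. Of the 21, 0 had an unadjusted p under 0.05, but only 1.58% of all genes did. Nr1d1, the heme-binding repressor REV-ERB alpha that is a direct output of feeding-entrained clocks, was at 7000.0, 6214 and 6603 normalized counts in TRF mice, against 6003, 5456 and 5717 in ALF mice. Its groups did not overlap, and the log2 fold change was 0.21 ± 0.11 (SE), with an unadjusted p of 0.0673. Cry1, a repressor of BMAL1 and CLOCK, also lay apart, at 859, 848 and 779 normalized counts in TRF mice, against 768, 737 and 722 in ALF mice, a log2 fold change of 0.16 ± 0.14 (SE). The core genes overlapped: the log2 fold change was -0.061 ± 0.12 (SE) for Bmal1, 0.064 ± 0.19 (SE) for Per1, 0.079 ± 0.23 (SE) for Per2 and 0.10 ± 0.21 (SE) for Dbp, the D-box activator. Without TRF-305, the highest of all for Per1 and Per2, those 2 fold changes were -0.11 and -0.090. The 95% interval of Bmal1 ran between -0.31 and 0.19 and that of Dbp between -0.33 and 0.52.

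Of 26 genes induced by glucocorticoids, 21 had a positive fold change, with a median of 0.13, and 0 passed. The median was 0.058 without TRF-305 and 0.056 without ALF-314. The groups did not overlap for 2 of them, both higher, where 6.00% of all genes lay apart in that direction; the count is near that share. Fkbp5, a chaperone of the glucocorticoid receptor and its standard target, was at 2003, 2002 and 2159.7 normalized counts in TRF mice, against 1823, 1749 and 1813 in ALF mice. The difference was small but free of overlap, with a log2 fold change of 0.19 ± 0.17 (SE). Angptl4, an inhibitor of lipoprotein lipase that fasting induces, was the second, with a log2 fold change of 0.61 ± 0.47. Sult1a1, a sulfotransferase, was at 487, 399 and 490.1 normalized counts in TRF mice, against 402, 328.05 and 321.9 in ALF mice, with 1 TRF value inside the ALF range. The member with the smallest p went the other way: Pdk4, the kinase that shuts pyruvate dehydrogenase in fasting, was at 314.5, 422 and 356 normalized counts in TRF mice, against 515, 417 and 489 in ALF mice, a log2 fold change of -0.38 ± 0.19 (SE) with an unadjusted p of 0.0475.

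Pdk4 was also 1 of the 3 genes of fasting and fat oxidation with an unadjusted p under 0.05, all 3 lower in TRF mice, of 25 listed, against 1.14% of all genes. Cpt1a, the enzyme that commits fatty acids to the mitochondrion, was at 885, 1190.1 and 1201 normalized counts in TRF mice, against 1527, 1524 and 1472 in ALF mice. The ALF mice lay within a narrow range above all TRF mice, and the log2 fold change was -0.48 ± 0.21 (SE). Cpt2, which acts after it on the inner membrane, was at 235, 247 and 251 normalized counts in TRF mice, against 402, 429.8 and 349.6 in ALF mice, a log2 fold change of -0.68 ± 0.28 (SE) with an unadjusted p of 0.0194. None of the 3 passed the adjusted test. With the choroid plexus covariate the log2 fold change was -0.29 for Cpt1a and -0.39 for Cpt2. The beta-oxidation enzymes themselves were near 0: Acadm had a log2 fold change of -0.038 ± 0.16, Acadvl of -0.067 ± 0.15 and Hadhb of -0.016 ± 0.13. Hadha, the partner subunit of Hadhb, lay apart at -0.10 ± 0.12, as did Etfdh, which passes the electrons of fat oxidation on, at -0.20 ± 0.15. Over the list 19 of 25 were negative, with a median of -0.038. Bdh1, a dehydrogenase of ketone bodies, had a log2 fold change of -0.029 ± 0.10, and its groups overlapped.

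On the side of glucose, Slc2a3, the neuronal glucose transporter GLUT3, was at 6644, 6710.3 and 6663 normalized counts in TRF mice, against 5730.1, 5485 and 5587 in ALF mice. The groups were narrow and apart, with a log2 fold change of 0.25 ± 0.10 (SE) and an unadjusted p of 0.0136, which did not pass after adjustment. Glycolysis genes had a median log2 fold change of 0.044, with 14 of 18 positive. Aldoc, the aldolase of astrocytes, was at 32810.2, 26698 and 34041 normalized counts in TRF mice, against 26702, 26257 and 28752 in ALF mice, which overlapped. Genes of insulin and FOXO signalling had a median of 0.033, and it was -0.015 without TRF-302 and -0.014 without TRF-305. Cholesterol synthesis genes were mostly slightly lower, 18 of 24, with a median of -0.070. The groups lay apart lower for 7 of the 24 and higher for 2, where 6.82% and 6.00% of all genes did. Idi1, the isomerase of isopentenyl diphosphate, was at 828, 833 and 962 normalized counts in TRF mice, against 1158, 1123 and 1209 in ALF mice, a log2 fold change of -0.41 ± 0.20 (SE), while Tm7sf2, a sterol reductase later in the pathway, was at 643, 708 and 658 normalized counts in TRF mice, against 507, 579 and 536 in ALF mice, a log2 fold change of 0.31 ± 0.18 (SE).

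Temperature-sensitive and folding genes gave the following. The cold-inducible RNA-binding proteins Rbm3 and Cirbp had log2 fold changes of 0.25 ± 0.18 (SE) and 0.18 ± 0.20 (SE). Rbm3 was at 2426, 2683 and 2424 normalized counts in TRF mice, against 2299.5, 1884 and 2181 in ALF mice, free of overlap. Cytosolic heat shock genes had a median of 0.041 and chaperones of the endoplasmic reticulum one of -0.0046, which was 0.048 with the choroid plexus covariate. Hspa5, the main chaperone of the endoplasmic reticulum, was at 13636, 13943 and 14500.2 normalized counts in TRF mice, against 13443, 14905 and 15199 in ALF mice, overlapping. Hyou1, its exchange factor, was nearly constant in TRF mice, at 4436, 4435 and 4448 normalized counts in TRF mice, against 3687, 4116 and 4047 in ALF mice, with a log2 fold change of 0.17 ± 0.18 (SE). Respiratory chain genes of the nucleus had a median of 0.056 with 20 of 26 positive, which was -0.0060 without TRF-330, and those of the mitochondrion a median of -0.10 with 11 of 12 negative. The mitochondrial genes are transcribed together and are not independent, and TRF-305 was lowest, for example in ND2 at 136254, 106163 and 132640.0 normalized counts in TRF mice, against 143054, 144735 and 137313 in ALF mice. Without that animal the median of the mitochondrial genes was -0.034, and without TRF-302 it was -0.16.

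In the amyloid and glial genes, 11 of 17 markers of plaque-associated microglia were negative, with a median of -0.22. Of the 17, 0 had an unadjusted p under 0.05, but only 1.58% of all genes did. With the choroid plexus level as a covariate the median was -0.12. Cd68, a lysosomal protein of phagocytes, was at 258, 222 and 232.8 normalized counts in TRF mice, against 289.9, 268 and 307.1 in ALF mice, free of overlap, and Trem2, the receptor that marks these cells, had a log2 fold change of 0.013 ± 0.30. Homeostatic microglia markers had a median of 0.046 (-0.018 with the choroid plexus covariate), with Tmem119 at 0.20 ± 0.19 (SE). Among the 21 genes of APP processing the median was -0.016. Aph1c and Aph1b, near-identical subunits of gamma-secretase between which reads may have been split, had log2 fold changes of -0.29 ± 0.18 (SE), or -0.11 with that covariate, and 0.16 ± 0.12 (SE).

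Astrocyte genes lay on both sides of 0. Gfap, the astrocytic filament that rises in gliosis, was at 16710.3, 12944 and 13138 normalized counts in TRF mice, against 18696, 17626 and 17383 in ALF mice. All TRF values were below all ALF values, with a log2 fold change of -0.34 ± 0.16 (SE) and an unadjusted p of 0.0368. Aqp4, the water channel of astrocytic endfeet, was at 4787, 4312 and 4140.0 normalized counts in TRF mice, against 5607, 6669 and 5549 in ALF mice, a log2 fold change of -0.43 ± 0.20 (SE) with an unadjusted p of 0.0378. Fgfr3, a growth factor receptor of astrocytes, lay apart on the other side at 5702, 6087 and 6815 normalized counts in TRF mice, against 5228, 4863 and 5689 in ALF mice. Its lowest TRF and highest ALF value were almost equal. The median of the 14 astrocyte markers was -0.043. Myelin genes were negative in 16 of 17, with a median of -0.18 that was -0.069 without TRF-330 and -0.16 with the choroid plexus covariate. Beside Opalin the groups lay apart for Mog, Mag and Myrf, 4 of 17 where 6.82% of all genes lay apart lower. Mog, a surface protein of myelin, was at 2009, 1661 and 1459 normalized counts in TRF mice, against 2195, 2149.8 and 2299 in ALF mice, and Mbp, the most abundant member, was at 124461, 109083 and 101513 normalized counts in TRF mice, against 110170.0, 104925 and 118760.0 in ALF mice with no separation.

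Lists of the ventricle and its surroundings had negative medians beside that of the choroid plexus. Ependyma, the ciliated lining of the ventricle, had a median of -0.49, which was -0.069 with the choroid plexus level as a covariate, -0.75 without ALF-303 and -0.27 without ALF-329. The meninges list was mixed, with 5 of 13 members positive, log2 fold changes of -1.17 to 0.57 and a median of -0.065. Its member of smallest p, Lum, lumican of fibroblasts, was at 155, 134.7 and 106.6 normalized counts in TRF mice, against 215, 305.3 and 203 in ALF mice. The log2 fold change of Lum was -0.86 ± 0.35 (SE) with an unadjusted p of 0.0164. The choroid plexus list itself had 0 of 19 positive, 18 of 19 with groups apart (6.82% of all genes lay apart lower) and a median of -2.04. Of the 19, 0 had an unadjusted p under 0.05 (1.58% of all genes did). For Ttr the log2 fold change was -3.70 ± 3.16. Without TRF-302 the median was -0.92. The thalamus median of -0.53 was -0.17 without ALF-314. Neuronal lists were near 0, with medians of 0.030 for dentate granule cells, 0.062 for CA1, -0.038 for CA3 and 0.044 for interneurons. Their signs rested on single animals: the dentate median was 0.15 without TRF-302 and -0.082 without ALF-329, that of CA1 was -0.028 without TRF-305, and without ALF-314 that of CA3 was 0.052 and that of interneurons -0.029. Npnt, nephronectin, was the dentate marker with an unadjusted p under 0.05 (0.0353), at 847, 746 and 670.5 normalized counts in TRF mice, against 722, 498 and 575 in ALF mice. The part of these tissue differences in the other results was not tested beyond the covariate and the animals left out.

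The remaining lists had medians between -0.12 and 0.021, where that of all genes was 0.0063. Of 10 mural cell markers 1 was positive, and of 15 interferon response genes 4, where 51.8% of all genes were. Of the immediate early genes, the first to respond to neuronal firing, 10 of 28 were positive, with a median of -0.089, which was 0.030 without ALF-303. Fos itself was at 272, 268 and 151 normalized counts in TRF mice, against 407, 186 and 243 in ALF mice, with wide spread and full overlap. The interferon response genes had a median of -0.10 (0.00099 without ALF-314), and Bst2, tetherin, was the 1 member of 15 whose groups lay apart, where 6.82% of all genes lay apart lower, at 171, 156 and 192 normalized counts in TRF mice, against 212, 455 and 259.9 in ALF mice, a log2 fold change of -0.76 ± 0.50 (SE) that was -0.35 with the choroid plexus covariate. Medians were -0.030 for targets of the stress factor ATF4, 0.021 for autophagy and lysosome, -0.068 for oligodendrocyte precursors, -0.039 for endothelium, -0.12 for mural cells, -0.065 for meninges and -0.035 for striatum. Single animals moved several of these medians: that of endothelium was 0.021 without TRF-305 and 0.0059 without ALF-329, and that of mural cells ranged between -0.26 (without TRF-302) and -0.059 (without ALF-303). That of meninges ranged between -0.36 (without TRF-305) and 0.062 (without TRF-330), and that of striatum between -0.25 (without TRF-305) and 0.21 (without ALF-329). Over all lists and all members, none passed the adjusted test in the fit of all animals. Mfsd2a, the lipid transporter of the blood-brain barrier, lay apart at 870.0, 835 and 837 normalized counts in TRF mice, against 657, 619 and 709 in ALF mice, and Higd1b, a pericyte gene, at 31.0, 47.3 and 38.5 normalized counts in TRF mice, against 47.9, 61.1 and 81.4 in ALF mice.

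**Figure D3:**
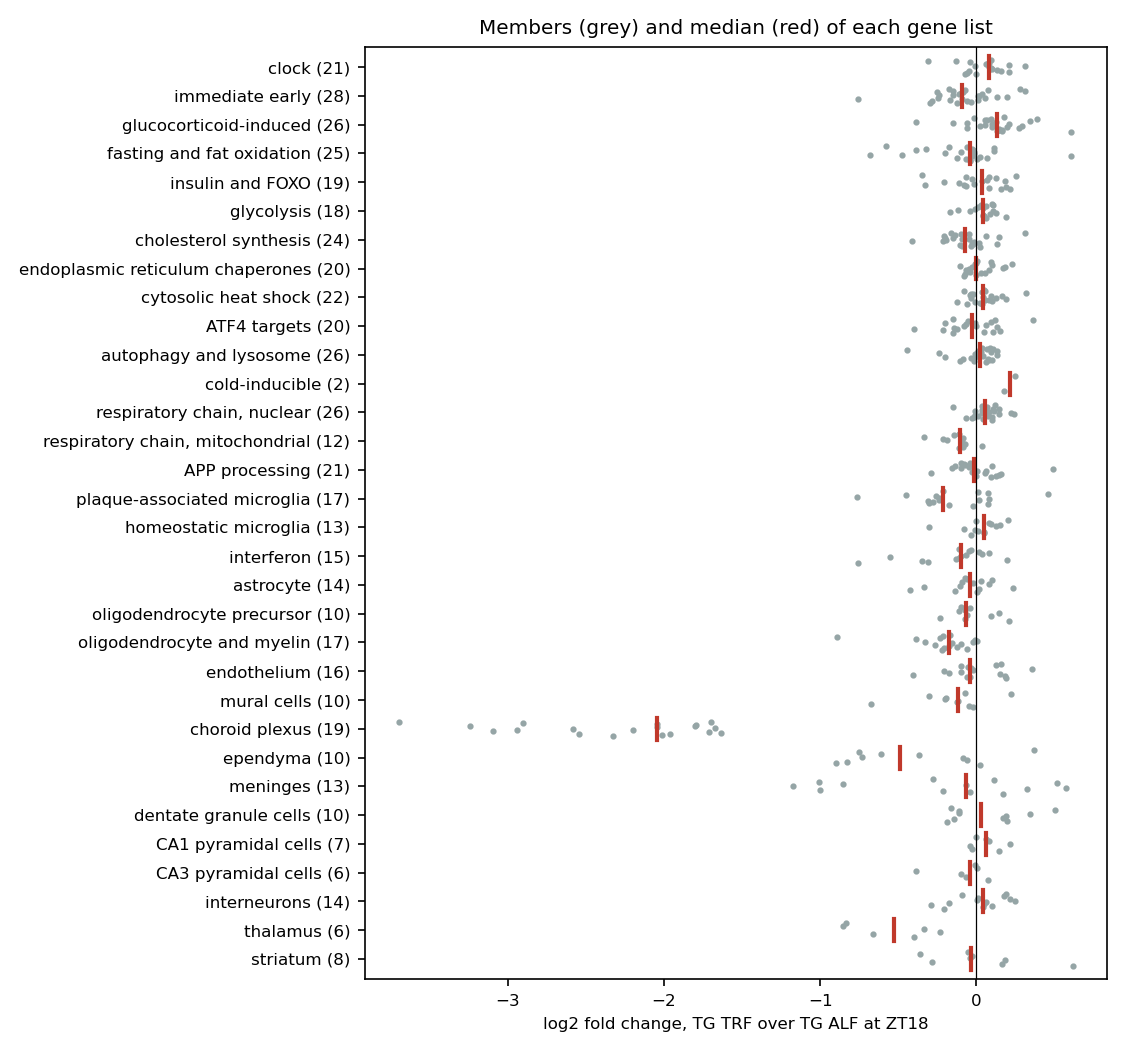
Log2 fold change (TRF over ALF) at ZT18 in TG mice for the members of 32 gene lists, 1 grey point per gene, with the median in red and the number of members in brackets. The choroid plexus list stands alone at a median of −2.04, the thalamus (−0.53) and ependyma (−0.49) lists follow, and every other median lies between −0.22 and 0.21.

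Whether the feeding effect inside the window differed from that at other times was tested directly. The effect at ZT18 minus the mean effect at ZT0, ZT6 and ZT12 passed for 0 of 14260 genes (limma, smallest adjusted p 1.0), with 47 higher and 89 lower at an unadjusted p under 0.05, and each alternative fit that holds the other times also gave 0. Among the genes of smallest p was Gm9776, with a log2 fold change of -0.72 ± 0.22 (SE) at ZT18 and of 0.18, 0.20 and 0.26 at ZT0, ZT6 and ZT12, and a difference of -0.93 (unadjusted p 0.000310). For Tpbg the difference was 0.67, for Tmc7 0.38, and for Mms22l -1.45. These differences were read from the ends of a table in which nothing passed. Among the 12 leading higher genes 8, 9 and 10 were also positive at ZT0, ZT6 and ZT12, and 7 at all 3 times. Of the 12 leading lower genes 8, 11 and 10 were negative at those times, and 7 at all 3. Of all genes 60.1%, 61.0% and 59.8% had the same sign at those times as at ZT18, against which these counts are to be read. Their medians there were 0.14, 0.17 and 0.20 for the higher and -0.10, -0.24 and -0.18 for the lower genes, against 0.71 and -0.80 at ZT18, where they were chosen.

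Most genes with a feeding effect outside the window had the same sign inside it. With the 15 TRF and 16 ALF mice of ZT0, ZT6 and ZT12, none of which is among the 6, limma called 42 genes (0.295%), 18 higher (0.126%) and 24 lower (0.168%) on TRF; this contrast was drawn on after earlier results of these data were known. At ZT18 16 of the 18 were positive and 22 of the 24 negative, 38 of 42, where 63.1% of all genes had the same sign in both. With the choroid plexus level as a covariate 37 of the 42 had the same sign, and without TRF-302 38 did. The sizes were smaller: the median was 0.29 at the other times and 0.16 at ZT18 for the higher genes, and -0.37 and -0.19 for the lower. The genes were chosen by their values at the other times, so their sizes there are a description. The groups lay apart in the same direction at ZT18 for 5 of the 18 and 8 of the 24, together 31.0% against 6.00% and 6.82% of all genes. Of the 42, 4 had an unadjusted p under 0.05 there, where 1.58% of all genes did.

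Etnppl, the astrocytic lyase of phosphoethanolamine, was foremost. At ZT18 it was at 1615, 1359 and 1728 normalized counts in TRF mice, against 1034, 955 and 963 in ALF mice. The groups were far apart, and the log2 fold change was 0.67 ± 0.31 (SE) (unadjusted p 0.0390), against 0.89 ± 0.14 at the other times. Il33, an alarmin cytokine kept in the nuclei of glia, was at 2394, 2175 and 1915 normalized counts in TRF mice, against 2907, 2783 and 2824 in ALF mice, a log2 fold change of -0.40 ± 0.14 (SE) with an unadjusted p of 0.00477, against -0.25 ± 0.061 at the other times. Ykt6 had 0.24 ± 0.092 (SE) at ZT18 and 0.20 ± 0.041 at the other times. Adamtsl1, a secreted matrix protein, was at 333, 355 and 241 normalized counts in TRF mice, against 415, 482 and 487 in ALF mice, a log2 fold change of -0.59 ± 0.21 (SE), against -0.39 ± 0.10. These 4 are the genes of the 42 with an unadjusted p under 0.05 at ZT18.

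Thra, the thyroid hormone receptor alpha, was at 20377, 18642 and 22029 normalized counts in TRF mice, against 16706, 16509.8 and 18241 in ALF mice at ZT18, apart, with a log2 fold change of 0.24 ± 0.13 (SE) against 0.23 ± 0.058 at the other times. Fgfr2, a fibroblast growth factor receptor, was at 1763, 2028 and 1965 normalized counts in TRF mice, against 2425, 2476 and 2224 in ALF mice, a log2 fold change of -0.31 ± 0.16 (SE) against -0.39 ± 0.073. Cd93, a receptor of the vessel lining, had -0.060 ± 0.29 (SE) at ZT18 against -0.54 ± 0.13, and Kdr, the VEGF receptor, -0.21 ± 0.28 (SE) against -0.51 ± 0.13, and the difference had an unadjusted p of 0.129 for Cd93 and 0.333 for Kdr. The 4 genes that turned sign at ZT18 were Igbp1 (-0.10 ± 0.11 (SE), against 0.21 ± 0.050), Fbxo6 (-0.034 ± 0.16 (SE), against 0.29 ± 0.070), Mpdz (0.052 ± 0.11 (SE), against -0.23 ± 0.051) and Sall1 (0.10 ± 0.13 (SE), against -0.23 ± 0.056). All 4 ZT18 values were within 1 SE of 0, and the difference between times had an unadjusted p of 0.0125 for Igbp1, 0.0679 for Fbxo6, 0.0284 for Mpdz and 0.0223 for Sall1, none of which passed after adjustment (limma).

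**Figure D4:**
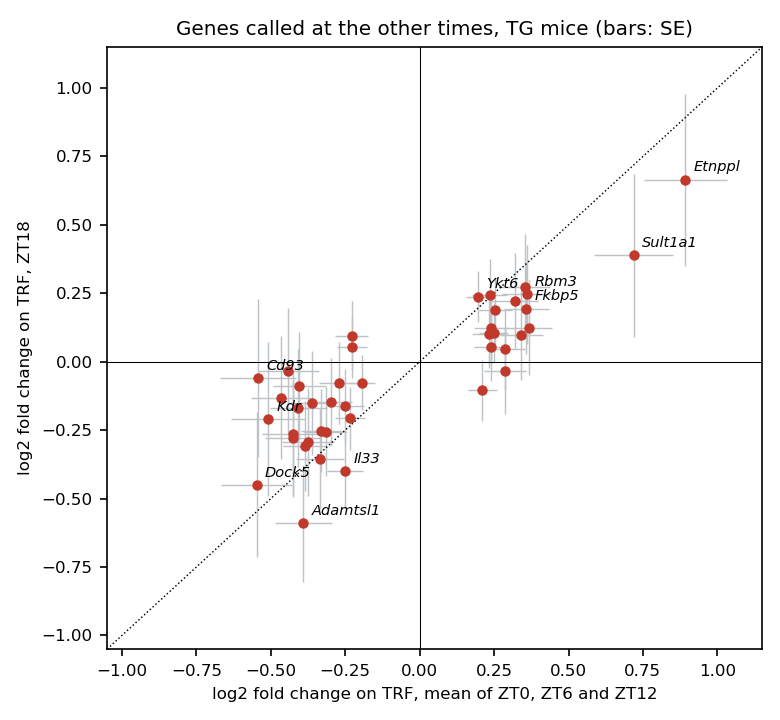
Log2 fold change (TRF over ALF) in TG mice at ZT18 (vertical) against the mean of ZT0, ZT6 and ZT12 (horizontal) for the 42 genes called at the other times, with SE bars and a dotted line where both are equal. Of the 42, 38 lie in the 2 quadrants of equal sign, most of them nearer to 0 at ZT18; Etnppl (0.89 and 0.67) lies farthest out.

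Levels over the day place the ZT18 values among those of the other TG mice. Etnppl averaged 1167 ± 302.2 (SD, n = 4) on TRF and 557 ± 111 (n = 4) on ALF at ZT6, 2259 ± 539 (SD, n = 5) on TRF and 1042 ± 182 (n = 6) on ALF at ZT12 and 1567 ± 189 (SD, n = 3) on TRF and 984 ± 43.4 (n = 3) on ALF at ZT18. The TRF mean was above the ALF mean at each of these times. Fkbp5 averaged 2916 ± 92.0 (SD, n = 5) on TRF and 2033 ± 229 (n = 6) on ALF at ZT12 and 2055 ± 91.0 (SD, n = 3) on TRF and 1795 ± 39.8 (n = 3) on ALF at ZT18. The gap between the means was greater at ZT12, 3 h before the window, and the list medians of glucocorticoid-induced genes ran 0.15, 0.31, 0.53 and 0.13 at ZT0, ZT6, ZT12 and ZT18. Per1 averaged 3279 ± 401 (SD, n = 4) on TRF and 2404 ± 387 (n = 4) on ALF at ZT6, 3450.4 ± 406 (SD, n = 5) on TRF and 2868 ± 309.2 (n = 6) on ALF at ZT12 and 2265 ± 498 (SD, n = 3) on TRF and 2138 ± 164 (n = 3) on ALF at ZT18. Pdk4, lower at ZT18, had log2 fold changes of -0.052, -0.32 and 0.57 at ZT0, ZT6 and ZT12, against -0.38 at ZT18 (difference from their mean -0.45, unadjusted p 0.0341). Hspa5 averaged 8154 ± 1782 (SD, n = 5) on TRF and 8564 ± 602 (n = 6) on ALF at ZT12 and 14026 ± 438 (SD, n = 3) on TRF and 14516 ± 940.3 (n = 3) on ALF at ZT18, so the ZT18 mean exceeded the ZT12 mean in both schedules. The animal numbers of the ZT6 and ZT18 mice all lie above those of nearly all ZT0 and ZT12 mice. Time of day thus largely coincides with the series of animal numbers. Every comparison between these times, of levels, spread or feeding effect, carries this limit. The part of the animal series in them was not tested.

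**Figure D5:**
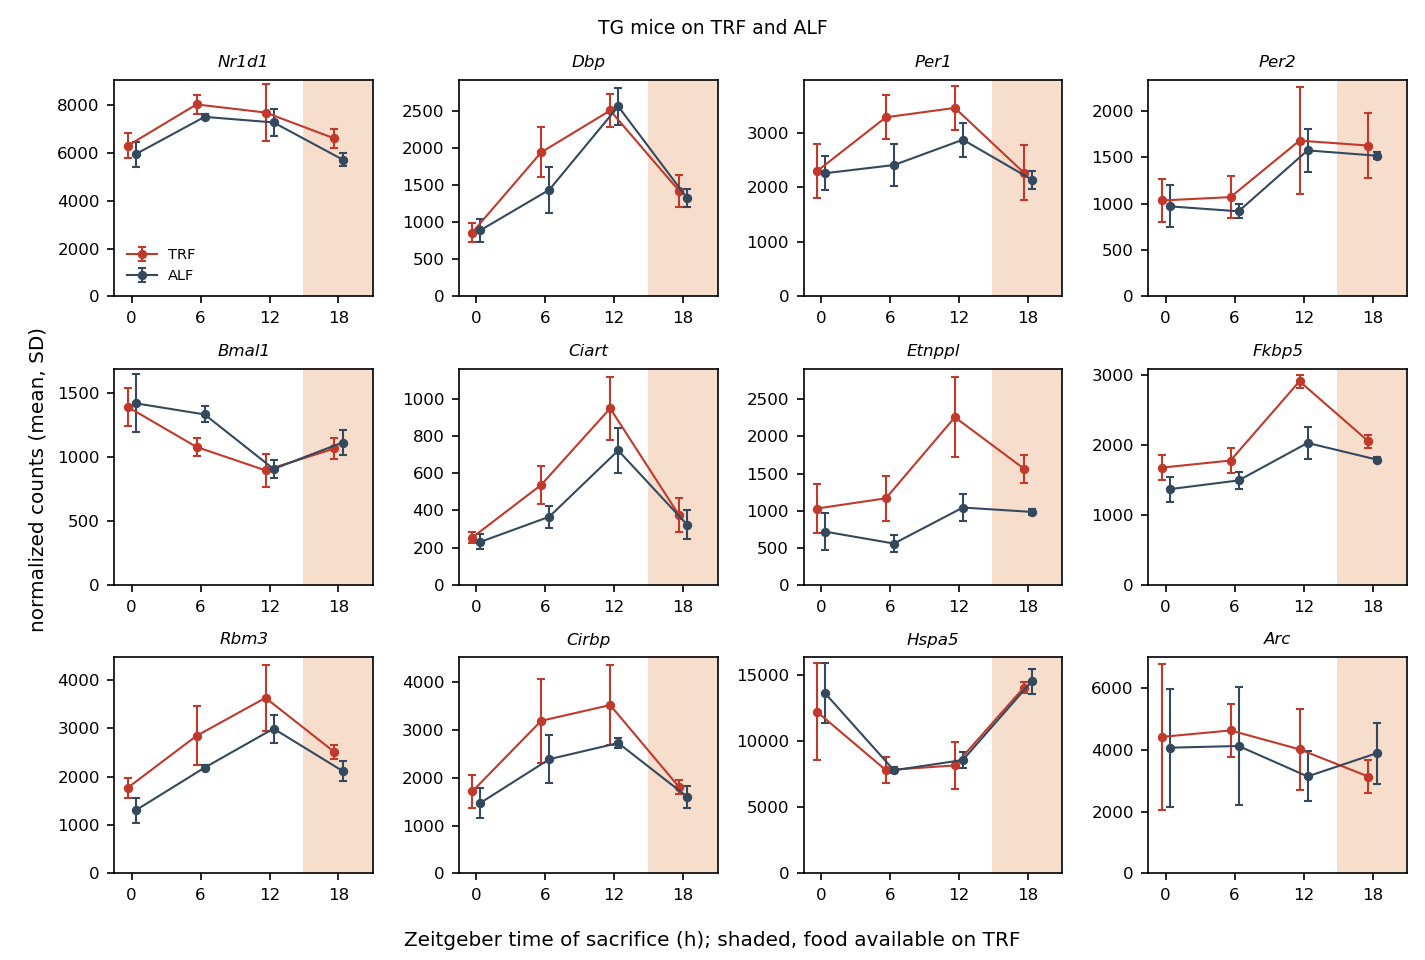
Normalized counts (mean and SD over animals) of 12 genes in TG mice at ZT0, ZT6, ZT12 and ZT18, TRF in red drawn slightly left of ALF in dark blue, with the hours of food on TRF shaded. The Nr1d1, Etnppl, Fkbp5, Rbm3 and Cirbp means are higher on TRF at all 4 times, and at ZT18 the TRF and ALF means of Per1, Per2, Dbp, Bmal1 and Ciart are within the SDs of each other.

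Non-transgenic mice at ZT18 allow only a weak comparison, with 2 on TRF and 2 on ALF. The feeding effect in TG minus that in NTG mice passed for 0 of 14260 genes (limma), with 568 at an unadjusted p under 0.05 and a smallest adjusted p of 0.182, that of Trim12c. Trim12c was at 247 and 299 in NTG TRF mice, against 132 and 161 in NTG ALF mice, the reverse of the TG order given above, and the difference of the effects was -1.75 ± 0.37. Kirrel2 was at 404 and 440.1 in NTG TRF mice, against 488 and 566 in NTG ALF mice, with the TRF values below the ALF values, and Alpl at 133 and 139.8 in NTG TRF mice, against 206 and 143 in NTG ALF mice. Of the 12 leading higher genes 6 were positive in NTG mice, and of the 12 lower genes 5 were negative. Across all genes the feeding effects of TG and NTG mice at ZT18 had a Pearson correlation of -0.43 (genes are not independent). The counts of leading genes are to be read against that value. The choroid plexus level differed in opposite directions in the 2 genotypes, with TRF minus ALF list medians of -2.04 in TG and 4.66 in NTG mice. With its level as a covariate the count at an unadjusted p under 0.05 was 190. The fit of the 10 ZT18 animals alone called 85 genes, 6 higher and 79 lower, of which 0 were on the choroid plexus list. That 0 cannot decide the part of choroid plexus content, since the listed markers vary widely between animals. For Ttr the SE at ZT18 was 3.16 in the fit of all animals. The 79 lower genes have the sign of the difference between the list medians. The most negative of them were Krt18 (-5.30), Pla2g5 (-4.67) and Fap (-4.40). The 85 include the leading genes Trim12c and Kirrel2. Their list members include Tekt1 and Cfap126 (ependyma), Slc22a6 (meninges), Bst2 (interferon), Aph1c (APP processing), Lamp2 (autophagy and lysosome) and Mfsd2a (endothelium). Of the genes named here, Kirrel2, Slc22a6 and Mfsd2a had a positive difference between the genotypes and the others a negative one. The list members were named after their values were seen, and the part of tissue content in these calls was not tested.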

How the data were processed

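RNA of the hippocampus of 69 mice was sequenced in 70 libraries. The deposited values are 1 signal value per gene and library, normalized counts that the authors made with HISAT2, featureCounts and DESeq2 on GRCm38, per the submitters' processing notes; versions are not given in the sources used here. Every value was a whole multiple of 1 step per library within 0.01, and 14260 genes are listed, the lowest with a mean of 40.9, so genes of low level are not analysed here. Such values are not counts, so no count test was run; intervals cover only the spread between animals.

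Tests used limma 3.58.1 (R 4.3.3) on log2(value + 1), with 16 group means over all animals, trended robust variances, 2-sided p and Benjamini-Hochberg adjustment over all genes at 0.05. A pair of libraries whose labels share an animal number (NTG, ZT12) was averaged as 1 animal. On simulated data the fit was tested before use. Alternatives were fewer animals, plain variances, array or voom weights, a pseudocount of 8, a minimum mean of 100, other normalizations, covariates and leaving out each animal. Named genes were, as none passed, the 12 of smallest p in each direction whose groups do not overlap, the 3 of smallest p in each list, the 4 of smallest p in each direction for a difference between times or genotypes, those called at other times, and a fixed set of known genes; others were named after their values were seen. The members and the 33 gene lists were chosen with earlier results of these data known. Promoters come from RefSeq (GRCm38.p6) and figures from matplotlib 3.10.9.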

Additional observations from a re-analysis of the deposited data

How the results depend on the processing

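No paired analysis was possible because each animal has a number of its own. The count of genes past an adjusted p of 0.05 at ZT18 was 0 in every setting but array weights (9) and the fit of the 5 animals other than TRF-302 (31), which was added after the data were seen. For the TG against NTG difference it was 85 with the 10 ZT18 animals and 1 with array weights, and 0 otherwise. For the difference between times it was 0 in each fit that holds both. For the feeding effect at the other times it was 42 in all animals. That count was 21 with the choroid plexus covariate, 21 with voom weights and 68 with array weights. Counts at an unadjusted p under 0.05 moved by more than 1.5 times as well: for the ZT18 effect, 225 in all animals, they were 1012 in the 6 animals, 705 in the 10, 1342 with array weights, 973 in the 5 animals and 145 with the choroid plexus covariate. With array weights they were 551 for the difference between times and 1259 for that between genotypes, and the second was 1397 in the 10 animals and 190 with the choroid plexus covariate, against 568. The cause of these shifts was not tested. Of the log2 fold changes of named genes, 25 changed sign in some setting. With array weights App was at -0.00070 and Txnip at 0.0074, with quantile normalization App at -0.0077 and Txnip at 0.0073, Ighm at 0.0088, Cd93 at 0.013 and Fbxo6 at 0.0048, and with voom weights App at -0.012 and Mbp at -0.013. With the choroid plexus covariate App was at -0.023, Hspa5 at 0.044, Txnip at 0.078, Cobll1 at 0.036 and Ttr at 0.10, with the Xist covariate App at -0.0058 and Txnip at 0.023, and in the 5 animals Thy1 at -0.017, App at -0.014 and Mbp at -0.079. Leaving out 1 animal at a time gave ranges of -0.037 to 0.20 for Bok, -0.041 to 0.32 for Vip, -0.011 to 1.2 for Adora2a, -0.81 to 0.17 for Drd2, -6.40 to 0.48 for Xist, -0.017 to 0.11 for Thy1, -0.014 to 0.019 for App, -0.11 to 0.17 for Per1, -0.090 to 0.18 for Per2, -0.12 to 0.0073 for Bmal1, -0.50 to 0.065 for Fos, -0.084 to 0.064 for Txnip and -0.079 to 0.068 for Mbp. Among genes called at other times they were -0.020 to 0.22 for Prxl2a, -0.22 to 0.035 for Prr5l, -0.019 to 0.088 for Mpdz, -0.18 to 0.12 for Ighm, -0.21 to 0.15 for Cd93, -0.094 to 0.026 for Fbxo6, -0.21 to 0.046 for Itgam, -0.065 to 0.17 for Sparc and -0.033 to 0.11 for Dtnbp1. Medians of gene lists changed sign without 1 animal for several lists near 0, such as -0.015 and -0.014 for insulin and FOXO without TRF-302 and TRF-305, and 0.021 for astrocytes without TRF-305. The precision is that of 3 animals a group; the part of sequencing depth in it was not tested.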
